A study of Mus musculus with 292 samples.

Results

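The genes described here are those whose symbol begins with Psma, Psmb, Psmc, Psmd, Psme, Psmf or Psmg, the names given to subunits of the proteasome and to the proteins that help to assemble or regulate it. The symbol rule found 37 genes on 51 probes, of 10835 named genes and 23549 probes in all. Membership rests on the symbol alone, and where a gene had several probes the one of largest SD across the mice stood for it. Of the 37 genes, 31 encode constitutive subunits, activators, an inhibitor and assembly chaperones, and 4 belong to the immunoproteasome (Psmb8, Psmb9, Psmb10 and Psme1). The other two fit the rule by their symbol only: Psmc3ip encodes a cofactor of meiotic recombination, and Psme2b is a near-identical copy of the activator gene Psme2, so its probes may also report Psme2. Psme2 itself was not analysed here, since no named probe carried that symbol.

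The data come from whole brain RNA of 292 F2 mice of both sexes, offspring of an F1 intercross between C57BL/6J and C3H/HeJ, 2 inbred strains, in which either strain could be the mother's. All mice received a chow diet (4% fat) up to 8 weeks of age, then a Western diet (42% fat and 0.15% cholesterol) over 12 weeks, and were killed at 20 weeks after 12 h without food. The labels place all of them in 1 group, and the sex, cross direction and genotype of a single mouse were not used here. Each mouse was hybridised once, labelled with Cy3, against a Cy5-labelled common pool made from equal parts of every sample, and the values are read here as log10(mouse/pool).

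A ratio to the pool gives no absolute level, so levels were not compared between genes and the tissue could not be checked by its markers. Over all probes, the r of array pairs ran from -0.638 to 0.795 (median 0.109), with 3.39% of them under -0.3. The dyes in the labels fix the direction only as likely, and a turned sign would reverse every mean below and leave every correlation as it is. The arrays fell into 3 sets that share missing probes: set A (74 arrays, 19 probes missing on each), set B (77 arrays, 17 probes missing) and set C (141 arrays, none missing throughout). Set C holds the mouse numbers from 213 to 362, and sets A and B both lie below it, so array set and mouse number cannot be told apart between C and the others.

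The proteasome is the large protease that degrades proteins tagged with ubiquitin. Its 20S core is a barrel of stacked rings, with outer rings of alpha subunits that gate the entry and inner rings of beta subunits that hold the active sites, and the 19S cap recognises, unfolds and feeds in the substrate. Interferon induces the immunoproteasome subunits Psmb8, Psmb9 and Psmb10, which replace the catalytic subunits Psmb5, Psmb6 and Psmb7 and change which peptides are made for presentation on MHC class I molecules. In the healthy brain the constitutive form is known to predominate, and the immunoproteasome is known mainly from glia and from inflammation.

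The windows upstream of the 3 immunoproteasome catalytic genes are shown because Psmb8 and Psmb9 proved to vary together and Psmb10 did not follow them. Each holds the 250 bases before the annotated start, 5′ to 3′ on the gene's strand (RefSeq, GRCm38.p6), with capitals for a match to an interferon motif: ISRE (GAAA, 2 bases of any kind, GAAA) or GAS (TTCNNNGAA), searched on both strands.
Psmb8, chr17:34197945-34198194, plus strand: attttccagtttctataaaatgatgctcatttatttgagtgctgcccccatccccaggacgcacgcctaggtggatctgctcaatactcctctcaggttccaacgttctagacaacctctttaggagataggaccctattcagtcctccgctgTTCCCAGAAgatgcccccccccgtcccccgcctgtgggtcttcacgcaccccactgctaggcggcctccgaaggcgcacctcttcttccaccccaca
Psmb9, chr17:34187331-34187580, minus strand: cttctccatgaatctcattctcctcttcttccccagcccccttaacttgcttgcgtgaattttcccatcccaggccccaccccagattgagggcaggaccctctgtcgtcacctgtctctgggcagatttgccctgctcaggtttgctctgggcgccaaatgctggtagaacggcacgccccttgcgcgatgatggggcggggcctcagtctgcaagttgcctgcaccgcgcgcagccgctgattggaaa
Psmb10, chr8:105938393-105938642, minus strand: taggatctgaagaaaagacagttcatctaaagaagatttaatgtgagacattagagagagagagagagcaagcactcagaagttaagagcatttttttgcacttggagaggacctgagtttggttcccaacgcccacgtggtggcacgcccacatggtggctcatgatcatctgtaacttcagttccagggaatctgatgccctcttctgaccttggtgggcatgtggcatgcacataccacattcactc

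The Psmb8 window held 1 GAS match, TTCCCAGAA, from 97 to 89 bases before the start, and no ISRE match. The Psmb9 and Psmb10 windows held neither motif. Over all 32851 windows of this length, 7.02% held a GAS match and 2.98% an ISRE match, so these letters are a description of the windows and not of binding. Psmb9 and Tap1, a peptide transporter gene of the MHC class I pathway, start 226 bases apart on opposite strands of chromosome 17, and Psmb8 lies just beyond Tap1. Of the constitutive counterparts, Psmb5 and Psmb6 each held 1 match to the antioxidant motif ARE (TGACNNNGC), which 10.2% of all windows hold. Psmb7 was not searched here.

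The proteasome genes varied about as much from mouse to mouse as other genes. Their SD over the 292 mice had a median of 0.0486 (1.12-fold), against 0.0513 over all named genes. The 31 constitutive genes had the same median, 0.0486, and the 4 immunoproteasome genes had 0.0601. Where a gene had several probes, the one used was picked by this SD. Over genes with 1 probe, the median was 0.0459 for 26 proteasome genes and 0.0499 for 9684 named genes. Psma4, an alpha ring subunit, had the largest SD, 0.0794, and spanned 1.85-fold from the 5th percentile over mice to the 95th. Psma1, another alpha subunit, followed with 0.0766 and 1.72-fold, then Psmb9 with 0.0741 and Psmb8 with 0.0671, each spanning 1.62-fold. The fifth was Psmd3, a non-ATPase subunit of the 19S cap, with 0.0664.

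The spread differed between subunits of 1 ring. Among the 7 alpha subunits measured (of 8 listed), Psma6 had an SD of 0.0315, less than that of Psma4 or Psma1. Among the 4 structural beta subunits the SD ran from 0.0325 for Psmb2 to 0.0486 for Psmb3. The constitutive catalytic subunits had 0.0505 (Psmb5, the chymotrypsin-like site), 0.0606 (Psmb6, the caspase-like site) and 0.0660 (Psmb7, the trypsin-like site).

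Of the ATPases that drive unfolding, 4 of 6 were measured, from 0.0263 for Psmc4, the smallest SD of any proteasome gene, to 0.0560 for Psmc5. Of the non-ATPase subunits of the cap, 6 of 11 were measured, among them the ubiquitin receptor Psmd4 (0.0461) and the deubiquitinase Psmd14 (0.0483). The 19S assembly chaperones Psmd5 and Psmd10 had 0.0513 and 0.0394. The 20S assembly chaperones Psmg1, Psmg2 and Psmg4 had 0.0435, 0.0393 and 0.0586, and the inhibitor gene Psmf1 had 0.0435. Psme3, the nuclear activator PA28 gamma, had 0.0432.

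Set C stood apart from sets A and B. The means of A and B lay within 0.0164 of each other for every proteasome gene, which was the difference for Psmb8. Set B minus A passed for 0 of the 37 (limma, adjusted p under 0.05 and at least 1.1-fold; 0.467% of all probes passed), and also for 0 without the fold threshold, where 1.3% of all probes passed. Set C minus A passed for 11 of the 37, with 7 higher and 4 lower in C, while 24.4% of all probes passed (12.6% higher, 11.8% lower). At this fold threshold the share among proteasome genes was therefore close to that of any probe. With arrays scaled to equal SD the split was 4 higher and 4 lower, and with arrays centred on their median it was 9 and 4. Without the fold threshold 33 of the 37 passed in either comparison of set C. Of all probes 61.7% did against set A and 59.7% against set B, a smaller share than among the proteasome genes.

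Psmb7 had the largest shift. Its log ratio lay between -0.149 and 0.107 in set A (median -0.0111), between -0.151 and 0.112 in set B (median 0.0115) and between -0.0470 and 0.219 in set C (median 0.0828). The ranges overlapped, but the median of set C stood above those of A and B, and the difference from set A was 0.0934 (SE 0.00718, 1.24-fold, limma adjusted p = 2.53e-29). Psma3, an alpha subunit, was 1.16-fold higher in set C than in A, Psmb6 was 1.15-fold higher and the ATPase gene Psmc1 1.14-fold higher. Lower in set C were Psma7 (1.16-fold), Psme1, the alpha subunit of the interferon-inducible PA28 activator (1.14-fold), Psmd3 (1.13-fold) and Psmb9 (1.11-fold).

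Set C minus B, which uses the same set C arrays, passed for 9 of the 37, with 4 higher and 5 lower (23.4% of all probes, 12.5% higher and 11.0% lower). With arrays centred on their median the split was 6 higher and 3 lower, and with arrays scaled it was 4 and 3. Psmb8 was 1.13-fold lower in set C than in B (limma adjusted p = 8.71e-08). Its difference from set A, 0.0352 in size, was under the 1.1-fold threshold.

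**Figure D1:**
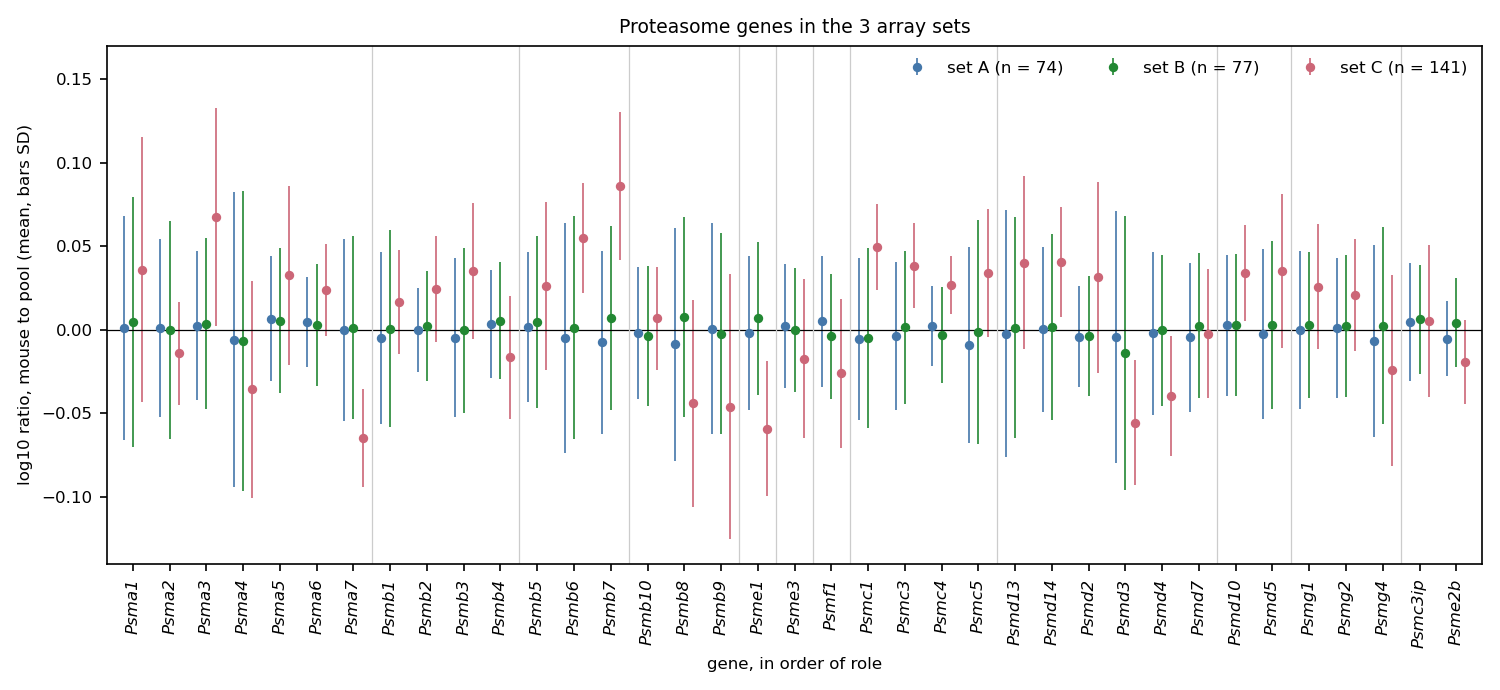
Mean log10 ratio to the pool of each proteasome gene in array sets A (74 arrays), B (77) and C (141), with bars of 1 SD over mice; genes are ordered by role and grey lines divide the roles. Sets A and B lie near 0 for every gene, while set C is shifted up for Psmb7 (mean 0.0860) and down for Psma7 (mean -0.0646) and Psme1 (mean -0.0590).

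None of the 37 genes lay 1.2-fold or more away from the pool over all mice (limma; 0.586% of all probes did). Without the fold threshold 35 of 37 passed, as did 68.4% of all probes, with means between -0.0315 (Psmd3) and 0.0416 (Psmb7). Within set C alone Psmb7 was the 1 gene that passed at 1.2-fold, with a mean of 0.0860 (6.96% of all probes).

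The log ratio changed with mouse number for 31 of the 37 genes, rising for 21 and falling for 10 (limma, adjusted p under 0.05), and for 62.3% of all probes (28.5% rising, 33.8% falling). With array set in the fit, 9 genes passed (18.0% of all probes). Among these 9, Psmb8 fell by 0.0315 per 100 mouse numbers (SE 0.00809) and Psmb9 fell by 0.0283, while Psmg4 rose by 0.0263 and Psma2 by 0.0244. Within set C alone the slope of Psmb8 was -0.00273 (SE 0.0122) and did not pass, against -0.0683 (SE 0.0180) in set A and -0.0459 (SE 0.0123) in set B. The genes that passed within a set numbered 9 in A, 11 in B and 13 in C, with 12.8%, 21.6% and 25.3% of all probes. The description text has 2 spellings, of which the second is set B exactly. Psma7 and Psme1 were higher and Psmb7 lower in those arrays than in sets A and C together, at 1.11-fold each, and these 3 were all that passed (11.8% of all probes, 5.07% higher and 6.71% lower). Without the fold threshold 26 passed, and 45.4% of all probes did. Centring the arrays changed that split to 2 higher and 2 lower. For Psma7, Psme1 and Psmb7, set B minus A was 0.00118, 0.00875 and 0.0147, and none passed. Set C minus B was -0.0658, -0.0658 and 0.0787 in the same order, and all passed. These 3 genes therefore differed between the spellings through set C and not through set A.

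Proteasome genes varied together in many pairs, in both directions. On values centred within array sets, 216 of the 666 pairs passed (two-sided permutation of mice within sets, Benjamini-Hochberg adjusted over the pairs, r of at least 0.3 in size), 133 with a positive and 83 with a negative r. Of pairs of all named genes, 17.3% reached that size of r, 9.33% positive and 8.0% negative. The sign was the same in all 3 sets for 199 of the 216 pairs. The median r over all 666 pairs was 0.0332, and over pairs of named genes -0.00250, so the proteasome genes did not rise and fall as a single group.

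Subunits of the same particle were not alike throughout. Pairs within the 19S cap had a median r of 0.247 and 24 of 45 passed, 19 positive and 5 negative. Pairs within the constitutive 20S core had a median of 0.103 and 33 of 91 passed. Pairs of a 19S with a 20S subunit had a median of -0.00671, with 26 positive and 21 negative among the 47 of 140 that passed. Constitutive genes paired with immunoproteasome genes passed in 21 of 124 pairs, with a median of -0.0112. The last share, 16.9%, was close to the 17.3% of pairs of all named genes that reached an r of 0.3 in size. The shares were 53.3% within the 19S cap, 36.3% within the 20S core and 33.6% between cap and core.

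The highest correlation of all joined the neighbours Psmb8 and Psmb9, with r = 0.871 and rho = 0.854 over 292 mice (permutation p = 1e-05, the smallest that 100000 permutations can give, adjusted p = 2.59e-05). It was 0.883 in set A, 0.893 in set B and 0.875 in set C, and 0.844 without the 2 mice farthest from the Psmb8 median. The second joined Psma5 with Psmb5, at r = 0.821 and rho = 0.832 with the same permutation p. It was 0.817 without the 2 mice farthest from the Psma5 median. The pair holds for 1 probe of each gene. With the other probes of its gene, the Psma5 probe had an r of -0.000146, -0.0132 and 0.352, and the Psmb5 probe -0.149 and -0.146. The next 3 pairs were Psmb6 with Psmc5 (0.766), Psmb6 with the 20S chaperone Psmg1 (0.732) and Psmc5 with Psmd13 (0.729). Within set C, Psmb6 with Psmc5 had an r of 0.362, against 0.888 in set A and 0.883 in set B.

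The lowest correlations were Psma4 with Psmb3 (r = -0.660), Psma3 with the inhibitor gene Psmf1 (-0.648) and Psmb6 with Psmd3 (-0.647), each with permutation p = 1e-05 and adjusted p = 2.59e-05. The last of these had -0.790 in set A, -0.718 in set B and -0.166 in set C. Psmd3, although a 19S subunit, passed with 12 genes in the negative and 6 in the positive direction, and its median r with the others was -0.141. Psmc5, with 14 positive and 5 negative partners, had the highest median, 0.196. Psma1 and Psmb2 passed with no partner.

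Several of these genes moved with the main axis of variation of the whole array. The first principal component of all probes, centred within sets, held 12.3% of the variance. Psmg2 had an r of -0.822 with it, Psmg1 -0.793, Psmd5 -0.781 and Psmd13 -0.771, whereas Psmd3 had 0.744, Psmb1 0.716 and Psma4 0.609. With that component removed, Psmd5 with Psmg1 went from 0.711 to 0.242 and Psmb6 with Psmd3 from -0.647 to -0.257. Psmb8 with Psmb9 stayed at 0.875 and Psma5 with Psmb5 at 0.801. Over all 666 pairs the median r was 0.0332 before and 0.0399 after the removal. What the component stands for was not tested.

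**Figure D2:**
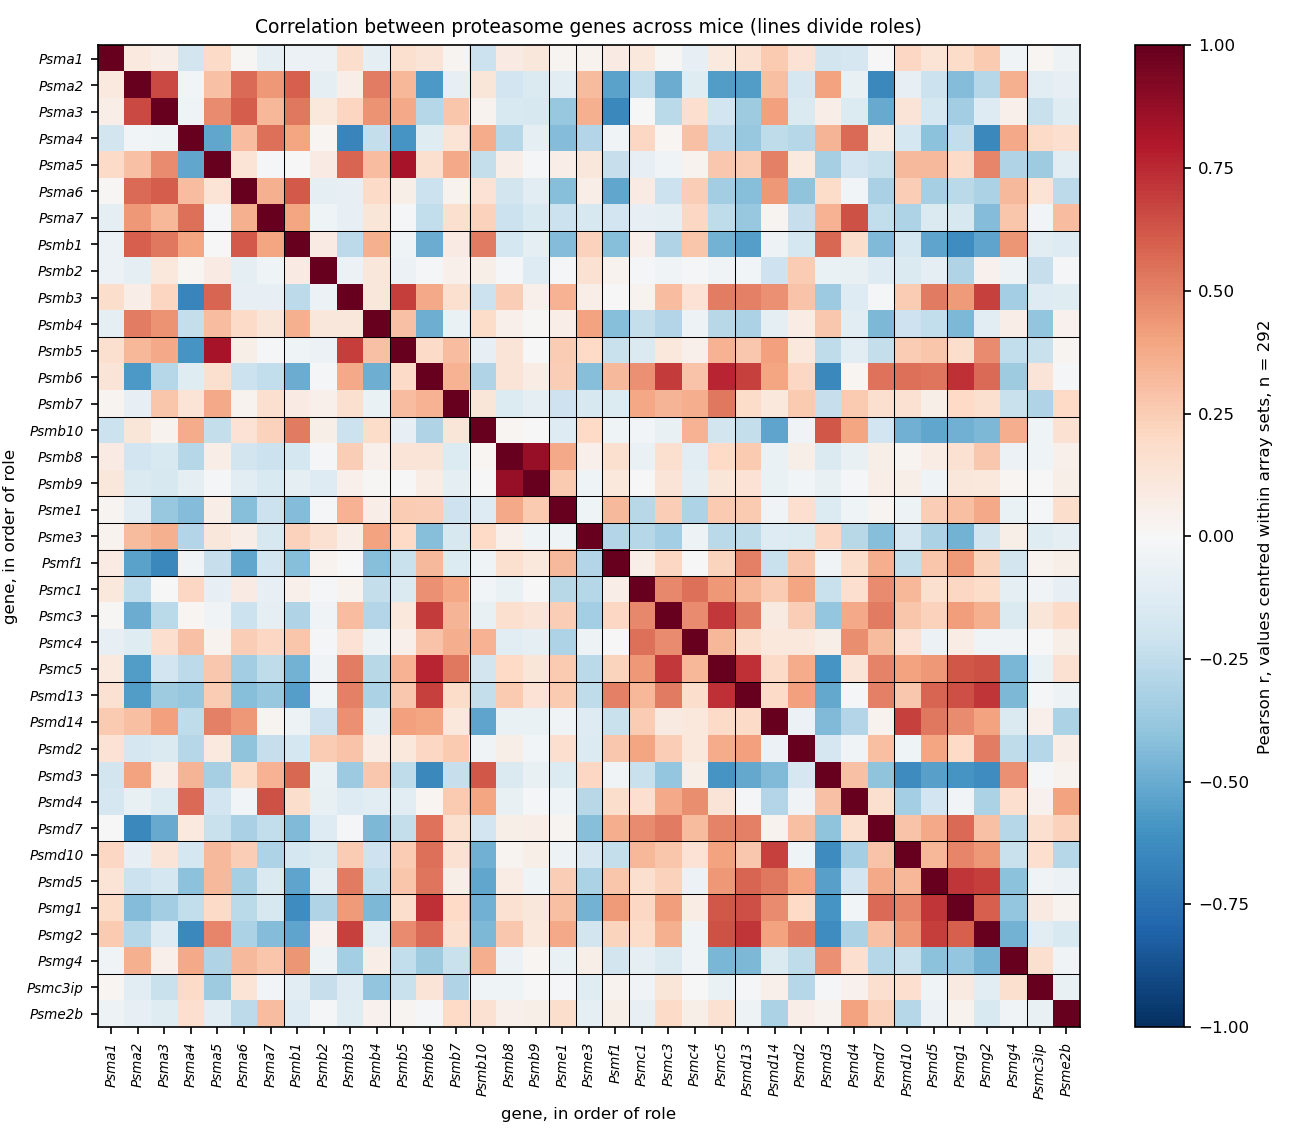
Pearson r of each pair of the 37 genes over 292 mice, on values centred within array sets, from -1 (blue) to 1 (red); black lines divide the roles. Psmb8 and Psmb9 form an isolated red block (0.871), Psmb10 stands outside it (0.0199 with Psmb8), and Psmd3 is negative with most genes that are positive with Psmb6.

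The 3 immunoproteasome catalytic genes did not form 1 group. Psmb8 lay between -0.143 and 0.149 in set A (median -0.0164), between -0.133 and 0.153 in set B (median -0.000127) and between -0.313 and 0.2995 in set C (median -0.0481). Psmb9 lay between -0.128 and 0.191, between -0.154 and 0.180, and between -0.353 and 0.372 in the same order, with medians of -0.00860, 0.00990 and -0.0478. Set C therefore held both the lowest and the highest mouse for either gene.

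The same 2 mice of set C were at both ends. The mouse with the lowest Psmb8 (-0.313) had -0.353 for Psmb9 and -0.313 for Psme1, but 0.0194 for Psmb10. The mouse with the highest Psmb8 (0.2995) had 0.372 for Psmb9 and 0.592 for Ifi47, an interferon-inducible GTPase gene, but 0.0155 for Psmb10 and -0.0150 for Psme1. The fits on Psmb8 are therefore given with and without them.

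Psmb10, on chromosome 8, ranged from -0.108 to 0.101 over all mice and had an r of 0.0199 with Psmb8 (permutation p = 0.737, adjusted p = 0.769) and 0.00504 with Psmb9 (permutation p = 0.930, adjusted p = 0.939). Both missed the threshold, as they did without the 2 mice farthest from the Psmb10 median (0.0268 and 0.00998). Psme1, on chromosome 14, had an r of 0.382 with Psmb8 (rho = 0.319, permutation p = 1e-05, adjusted p = 2.59e-05). Without the 2 mice farthest from the Psmb8 median it was 0.323. Its r with Psmb9 was 0.263 (permutation p = 1e-05, adjusted p = 2.59e-05), under the 0.3 set as the size threshold, and with Psmb10 it was -0.132. The 2 probes of Psme1 had an r of 0.586 with each other, while Psmb8, Psmb9 and Psmb10 had 1 probe each.

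On the probes used, each immunoproteasome subunit was little related to the constitutive subunit it replaces. Psmb5 has 3 probes, and the one used had an r of -0.149 and -0.146 with the others. Psmb8 with Psmb5 had an r of 0.125 (rho = 0.148, permutation p = 0.0329, adjusted p = 0.0490), Psmb9 with Psmb6 had 0.0737 (rho = 0.0285, permutation p = 0.175, adjusted p = 0.232), and Psmb10 with Psmb7 had 0.121 (rho = 0.192, permutation p = 0.0453, adjusted p = 0.0667). None reached the size threshold of 0.3 in either direction.

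**Figure D3:**
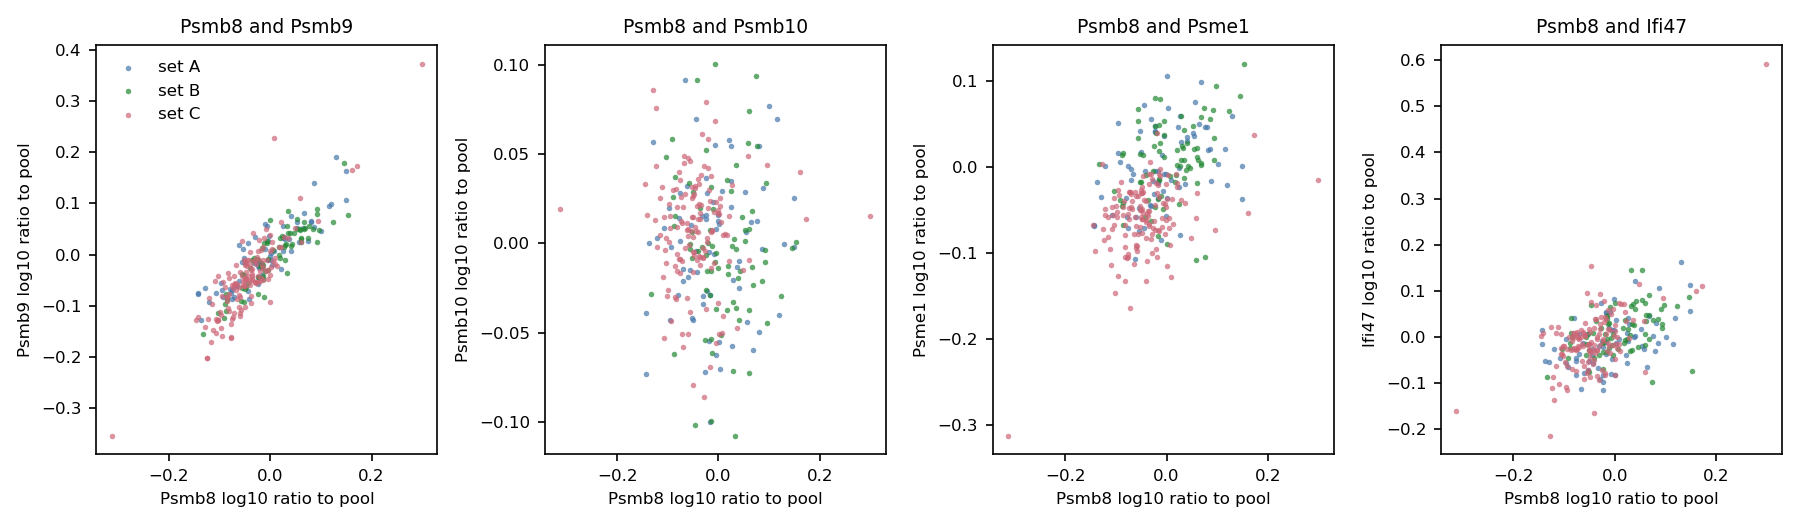
Log10 ratio to the pool of Psmb9, Psmb10, Psme1 and Ifi47 (vertical axes, scaled separately) against Psmb8 (horizontal axis), 1 point per mouse, coloured by array set. Psmb9 follows Psmb8 along a line (r = 0.871), Psmb10 shows no slope (0.0199), and 2 mice of set C at Psmb8 of -0.313 and 0.2995 lie far from the rest.

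Psmb8 was next set against every probe, with array set as a covariate. Of the 36 other proteasome genes, 2 passed (limma adjusted p under 0.05 and partial r of at least 0.3 in size), where 3.54% of all probes passed: Psmb9 (slope 0.972, SE 0.0324, limma adjusted p = 1.40e-86) and Psme1 (slope 0.261, SE 0.0373, limma adjusted p = 3.56e-09). By direction, 2.09% of all probes passed upward and 1.45% downward. Without the 2 farthest mice both still passed, with partial r of 0.844 and 0.323, and 5.0% of all probes did. In set A alone 8 of the 36 passed and in set B alone 7, with 18.1% and 17.1% of all probes. The slope on Psmb8 differed between sets for 2 genes, Psmb9 and Psma7 (limma, adjusted p under 0.05; 7.48% of all probes), and for 0 without the 2 farthest mice (0.955% of all probes). None of the 31 constitutive genes passed with or without those mice, and their partial r ran from -0.283 to 0.269 over all mice.

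Some genes of the interferon response rose and fell with Psmb8. Of 24 measured genes of that list, 8 passed upward and 0 downward, while 2.09% of all probes passed upward and 1.45% downward. The median partial r of the list was 0.275, against 0.0100 over all named genes, and the other 16 genes did not pass. The 8 that passed were Ifi47 (0.542), the GTPase genes Iigp1 (0.475), Igtp (0.431) and Gbp2 (0.340), the antiviral genes Bst2 (0.382), Oasl2 (0.353) and Rtp4 (0.343), and the transcription factor gene Irf8 (0.372). Among those that did not pass, Irf9 (-0.155) and Xaf1 (-0.0533) were below 0. Without the 2 farthest mice 9 of the 24 passed (5.0% of all probes in either direction), the median was 0.238, and Ifi47 had 0.442.

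Of 12 measured genes of MHC class I presentation, 3 passed upward and 0 downward: the peptide transporter genes Tap2 (0.422) and Tap1 (0.413), which lie next to Psmb8, and B2m (0.359), which encodes the light chain of class I and lies on another chromosome. Of all probes, 2.09% passed upward and 1.45% downward. The median of that list was 0.0881. Below 0, and not passing, were the class I genes H2-T23 (-0.239), H2-Q7 (-0.203) and H2-K1 (-0.0842), and also Nlrc5 (-0.138) and Calr (-0.0337). All other genes of the list were above 0. Without the 2 farthest mice 4 of the 12 passed.

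Markers of the cell types that brain tissue could hold were counted the same way. Of all probes, 2.09% passed upward and 1.45% downward. Of 9 microglial markers 1 passed, C1qb at 0.334 (median of the list 0.117). Of 8 endothelial markers 2 passed, Cldn5 (0.313) and Tek (0.310) (median 0.0486). Of 6 oligodendrocyte markers 1 passed, Cnp at 0.350 (median 0.0498). In these lists the markers below 0 were microglial Tyrobp (-0.223), endothelial Slco1a4 (-0.0549), Cdh5 (-0.0532) and Flt1 (-0.0207), and oligodendrocyte Mog (-0.124) and Mal (-0.0496). No T cell or NK cell marker passed among 8 (median -0.0299), and none passed among 6 astrocyte (median 0.141) and 6 neuronal markers (median 0.106). Without the 2 farthest mice 2 of the 6 oligodendrocyte markers passed, Cnp (0.383) and Sox10 (0.304), and the counts of the other marker lists were the same. In whole brain RNA, more cells of a type and more RNA per cell cannot be told apart, and the part of cell types in the relation with Psmb8 was not tested. The lists of ubiquitin and proteasome partners (0 of 15, median 0.0204), cytosolic chaperones (0 of 16), cytosolic ribosome (0 of 11) and oxidative phosphorylation (0 of 9, median -0.145) held no gene that passed with Psmb8, with or without those mice.

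**Figure D4:**
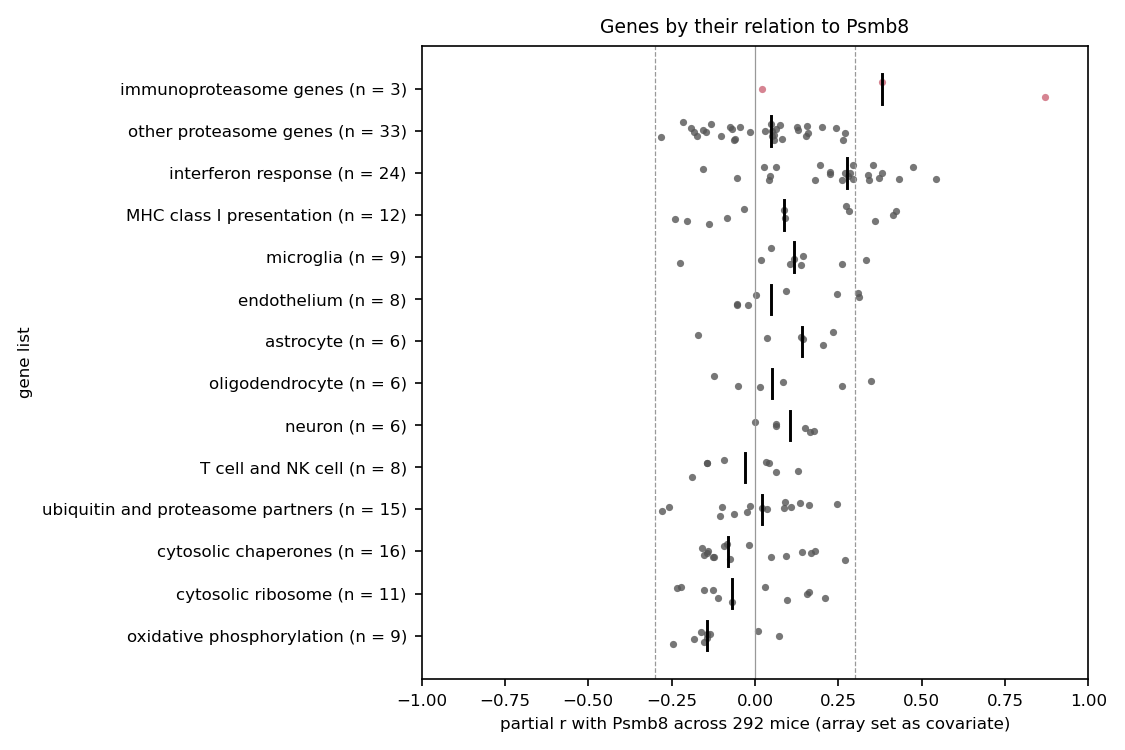
Partial r of single genes with Psmb8 over 292 mice, with array set as covariate, by gene list; each point is a gene, black bars are list medians and dashed lines mark 0.3 in either direction. The interferon response list has the highest median (0.275) of the lists outside the proteasome, and the constitutive proteasome genes lie within the dashed lines (from -0.283 to 0.269).

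The named genes most like Psmb8 were H2-Q1, an MHC class I gene (partial r = 0.550), Ifi47, Tgtp1, a further interferon-inducible GTPase gene (0.501), the ribosomal gene Rps2 (0.481) and Fam234a (0.479). H2-Q1 and Rps2 have close copies in the genome, so which copy their probes report is uncertain. Without the 2 farthest mice H2-Q1 remained at 0.550, Rps2 was at 0.529 and Fam234a at 0.506, and H2-Bl and S100a13 took the next places. The lowest were Adgrf4 (-0.478), the cell cycle gene Cdc20 (-0.452) and Impg2 (-0.378). With the 2 farthest mice left out they were Adgrf4 (-0.486), Cdc20 (-0.464) and Dvl3 (-0.415).

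H2-Q1, Rps2, Fam234a and Adgrf4 lie, like Psmb8, on chromosome 17. Of the 219 named genes outside the proteasome that passed upward with Psmb8, 32 (14.6%) lie on chromosome 17, as do 14 of the 164 that passed downward (8.54%). With those mice left out these were 39 of 263 upward (14.8%) and 18 of 268 downward (6.72%). That chromosome holds 4.76% of all named genes. In gene order, Tap1 and Tap2 next to Psmb8 had an r of 0.413 and 0.422 and the MHC class II gene H2-Aa 0.326, whereas the class II genes H2-Eb1 and H2-DMb1 had 0.0522 and -0.0270. The relation was therefore not the same for every gene of the region.

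Nearness on the chromosome did not set the proteasome genes apart as a family. The highest r with any of the 5 nearest measured genes on each side had a median of 0.384 over the 37 genes, and 24 of them (64.9%) reached 0.3. Over 10825 named genes the median was 0.374 and the share 64.8%. Next to Psmb8 and Psmb9, which have each other, the highest was Psmd14 with Slc4a10 (0.721), on chromosome 2.

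Psmb10 and Psme1 had other companions than Psmb8. Psmb10 was most like Stub1, a ubiquitin ligase gene (0.737), Ckmt1 (0.719) and Rom1 (0.715), and most unlike Rab27b (-0.718). Psme1 was most like Mcrs1 (0.794), Prkcz (0.729) and Bcl7c (0.726), and most unlike Ncam2 (-0.620). No gene of the interferon list was among the 8 genes most like either of them. With 24 listed genes among 10835 named genes, few could be looked for in 8 places, so no conclusion is drawn. The relation of that list to Psmb10 or Psme1 was not tested. In set A and in set B, Psme1 with Psmb10 had -0.171 and -0.348, and in set C 0.0781.

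The constitutive catalytic genes were each most like a different gene. Psmb6 was most like Golga5 (0.869), with 0.930 in set A, 0.891 in set B and 0.692 in set C, and most unlike Sec61g (-0.813). Psmb7 was most like Napb (0.645) and most unlike Szrd1 (-0.692). Psmb5 with Psmb6 had an r of 0.190, Psmb5 with Psmb7 0.309, and Psmb6 with Psmb7 0.347. The last of these was 0.445 in set A, 0.552 in set B and -0.0323 in set C, and Psmb5 with Psmb7 was -0.0696, 0.0697 and 0.699 in the same order.

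Psmb5, the constitutive counterpart of Psmb8, gave different answers with different probes. Against the probe of largest SD, 9 of the 36 other genes passed, 8 upward and 1 downward, while 24.5% of all probes passed (13.4% upward, 11.1% downward). Both directions together, the share among proteasome genes was therefore close to that of any probe. In set B alone 14 passed, with 29.8% of all probes. The 9 were Psma5 (partial r = 0.821), Psmb3 (0.692), Psmg2 (0.475), Psmd14 (0.409), Psma3 (0.382), Psmc5 (0.345), Psma2 (0.333), Psmb7 (0.309) and, downward, Psma4 (-0.590). The named genes outside the proteasome most like this probe were Ppm1a (0.707), Kat6b (0.707), Nmur1 (0.697), Pfkm (0.691) and Azin1 (0.687), and the lowest were Gsk3b (-0.751), Olfr1228 (-0.732) and Slitrk3 (-0.718).

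That probe had an r of -0.149 and -0.146 with the other 2 probes of Psmb5, which had 0.889 with each other. With the second probe in its place, 19 of 36 genes passed, 10 upward and 9 downward (37.1% of all probes), and with the third also 19 (36.1% of all probes). Psmg2 then turned to -0.642 and Psmb3 to -0.375, Psma4 turned to 0.508, and the highest were Psmd3 (0.738), Psmb1 (0.692) and Psmb10 (0.611). Which probe reports the Psmb5 transcript was not tested, so every signed value given for Psmb5 holds for the named probe, and for the probe of largest SD where none is named.

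The same held for several other genes. Of 11 proteasome genes with more than 1 probe there were 14 comparisons with the probe of largest SD, of which 6 had an r of at least 0.5 and 7 were under 0.3. The r was highest for Psmb3 (0.977), Psmc1 (0.918), Psmb7 (0.890), Psme2b (0.810), Psmd2 (0.724) and Psme1 (0.586). It was near or below 0.1 for Psma4 (-0.165), Psmb1 (-0.00729) and Psmd4 (0.0911), and the 4 probes of Psma5 ranged from -0.0132 to 0.976 in pairs. The large SD and the negative correlations of Psma4, and the pair of Psma5 with Psmb5, therefore rest on 1 probe of several.

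**Figure D5:**
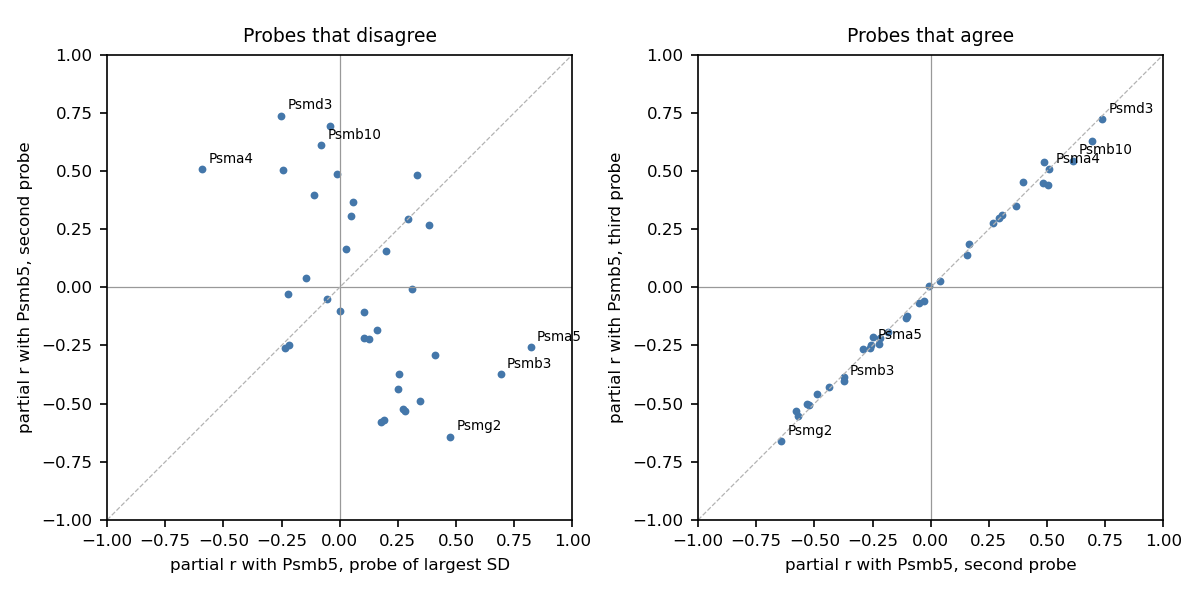
Partial r of the 36 other proteasome genes with 1 probe of Psmb5 plotted against that with another, each point a gene, 292 mice. Left, the probe of largest SD against the second probe, where Psmg2 goes from 0.475 to -0.642; right, the second against the third probe, where the points lie along the dashed line of equality.

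Irf1 encodes a transcription factor of the interferon response known to act on immunoproteasome genes. Of the 37 proteasome genes, 11 passed with Irf1, 8 upward and 3 downward (13.3% of all probes, 7.21% upward and 6.08% downward), and all 11 were constitutive. The highest were Psmd5 (partial r = 0.502), the ubiquitin shuttle docking subunit Psmd2 (0.458), Psmd13 (0.434), Psmg1 (0.409) and Psmf1 (0.399), and the lowest Psma6 (-0.450). The immunoproteasome genes had 0.234 for Psme1, 0.226 for Psmb8, 0.190 for Psmb9 and -0.0603 for Psmb10, and did not reach 0.3. Psme1, Psmb8 and Psmb9 missed only that size threshold (limma adjusted p = 0.000223, 0.000362 and 0.00303). The median of the immunoproteasome genes was 0.208, against 0.115 for the 31 constitutive genes, which ran from -0.450 to 0.502. With the first principal component as a further covariate 3 genes passed, Psma6, Psmd2 and Psmd5 (3.89% of all probes), and in set A alone 20 passed (16.2% of all probes).

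The named genes outside the proteasome most like Irf1 were Id3 (0.655), Sh3tc2 (0.643), Cd274 (0.634), the endothelial gene Cldn5 (0.618) and Ankrd10 (0.610), and the lowest were Pdcd5 (-0.611), Hint1 (-0.530) and Rbis (-0.524). Of 23 genes of the interferon list other than Irf1, 10 passed upward and 1 downward with it, led by Parp14 (0.525) and Ifi47 (0.488). Of all probes, 7.21% passed upward and 6.08% downward. The median partial r of the list was 0.280, against -0.00646 over all named genes.

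Nfe2l1 encodes the transcription factor known to raise proteasome gene expression when the proteasome is inhibited. With it 1 of the 37 genes passed, Psme1 at 0.326 (slope 0.519, SE 0.0886, limma adjusted p = 4.48e-07), while 4.96% of all probes passed. The constitutive catalytic genes had 0.0149 for Psmb5, -0.201 for Psmb6 and -0.160 for Psmb7. Psme1 no longer passed without the 2 mice farthest from the median of Nfe2l1, where 0 of 37 genes did (4.57% of all probes). In sets A, B and C alone 6, 4 and 2 genes passed, with 22.6%, 22.4% and 6.51% of all probes. The genes most like Nfe2l1 were Vps72 (0.487) and Tbx2 (0.486), and the lowest was Nexn (-0.406). Of 14 ubiquitin and proteasome partners other than Nfe2l1, 1 passed upward and 0 downward.

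Finally, 4 of the 37 genes fell into separate levels over the 292 mice (Gaussian mixtures, neighbouring means more than 3 SD apart), as did 7.07% of all probes. Psma7 had 71.4% of mice near -0.0590 and 28.6% near 0.0395, Psmb6 24.8% near -0.0599 and 75.2% near 0.0538, Psmc1 22.1% near -0.0520 and 77.9% near 0.0419, and Psmd3 94.8% near -0.0413 and 5.17% near 0.150. Centred within array sets, none of the 37 did. Psmb8 and Psmb9 were each described by 1 level.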

How the data were processed

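Each of 292 arrays compared the brain RNA of 1 mouse (Cy3) with a common pool (Cy5), per the labels' protocols. The deposited values were read as log10(mouse/pool), though neither base nor direction is stated. How the authors scanned, corrected and normalized the arrays is not given in the labels used. No intensities were used, so signal over background is unknown, and the number of arrays limits the precision.

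Of 23574 probes, 25 missing on more than 5% of arrays were left out and 252 missing values were set to their probe's mean. The platform annotation gave 1 symbol to 13647 probes, several to 48 and none to 9854. Of the first, 12645 matched a RefSeq gene (GRCm38.p6), and probes with several symbols were not named. All value columns belonged to the samples. Array sets group arrays that miss the same probes, among probes missing on at least 20 arrays. Mice are separate animals, each measured once.

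Every test across genes used limma 3.58.1 (R 4.3.3) over all probes with Benjamini-Hochberg adjustment. Partial r comes from each slope with array set as covariate. A comparison passed at an adjusted p under 0.05, with at least 1.2-fold against the pool, 1.1-fold between arrays or a partial r of 0.3. Pairs used 100000 permutations of mice within sets. Mixtures used mclust 6.1.1. Tests were checked on simulated data. One planned comparison is not reported here. The genes named are the immunoproteasome genes and their counterparts, the 5 of largest SD, the 5 highest and 3 lowest pairs, at most 10 genes passing a fit, and the 5 highest and 3 lowest genes for each of Psmb5, Psmb8, Irf1 and Nfe2l1. The proteasome genes, as a topic and a symbol rule, and the gene lists were chosen with earlier results of these data known. Genes named beyond that rule were chosen after their values were seen. Alternatives changed array scaling and centring, array weights, probes, thresholds, sets and covariates. Leaving out the 2 farthest mice, the other Psmb5 probes and removal of the first principal component from pairs were added after seeing the data.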

Additional observations from a re-analysis of the deposited data

Results flagged for a closer look

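The slope of 2 proteasome genes on Psmb8 differed between array sets in a test of the interaction (limma, Benjamini-Hochberg adjusted over all probes, of which 7.48% passed). For Psmb9 the slope was 0.803 (SE 0.0503) in set A, 0.898 (SE 0.0524) in set B and 1.12 (SE 0.0527) in set C, with an adjusted p of 0.00488. For Psma7 it was -0.261 (SE 0.0869) in set A, -0.304 (SE 0.100) in set B and -0.00256 (SE 0.0399) in set C, with an adjusted p of 0.0368. Without the 2 mice of set C farthest from the Psmb8 median neither passed, with adjusted p of 0.101 for Psmb9 and 0.0577 for Psma7, and 0.955% of all probes did. The sets differ in mouse number as well, and what makes them differ was not tested.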

How the results depend on the processing

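No paired analysis was possible because all mice form 1 group. Of 102 alternative counts 63 stayed within 1.5 times the main count and 39 did not, and of 365 alternative values of named genes and pairs 304 kept their direction and side of the threshold, 33 no longer passed, 1 newly passed, 9 that had not passed changed sign and 18 turned. Counts of proteasome genes that moved were as follows, with the cause not tested unless the setting itself shows it. Without a fold threshold 35 passed against the pool, 26 for the description form and 33 for set C minus either other set, and 1 passed against the pool in set C alone. For mouse number, 9 passed with array set in the fit and 9, 11 and 13 within sets A, B and C. With Psmb5, 18 passed when the probes of a gene were averaged, 14 in set B alone, 19 and 5 at a partial r of 0.2 and 0.4, and 19 with either other Psmb5 probe. With Psmb8, 8 and 7 passed in sets A and B alone, and 8 and 1 at a partial r of 0.2 and 0.4. With Irf1, 3 passed with the first principal component as covariate and 20 in set A alone. With Nfe2l1, 0 passed with scaled arrays, averaged probes, array weights or without the 2 farthest mice, 11 without array set, and 6, 4 and 2 in sets A, B and C. Of slopes on Psmb8 that differ by set, 1 passed with scaled arrays and 0 without the 2 farthest mice. At r of 0.2 and 0.4, 335 and 134 pairs passed. Genes in separate levels numbered 0 centred within sets, 1, 0 and 0 in sets A, B and C, and 8 and 0 with means 2 and 4 SD apart. Where the sections above give no share of all probes or pairs for a setting, none is given here. Such a count shows how the setting moved it and does not set the proteasome genes apart from other genes.

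The values that turned all involve Psmb5. With the second and the third of its probes Psma4 went to 0.508 and 0.507, Psma5 to -0.257 and -0.247, Psmb3 to -0.375 and -0.402, Psmc5 to -0.488 and -0.458, Psmd14 to -0.292 and -0.264 and Psmg2 to -0.642 and -0.663, and Psmb7 went to -0.00811 with the second. With averaged probes Psmb3 was at -0.0211, Psmc5 at -0.286, Psmd14 at -0.0640 and Psmg2 at -0.394, and Psmb7 was at -0.0696 in set A alone. Psmb9 and Psme1 passed with Psmb8 in every setting tried at a partial r of 0.3. Over all probes, 493 passed upward and 341 downward with Psmb8, and 627 and 252 with arrays centred on their median. Signal over background is unknown for every value.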
